A study of Mus musculus with 6 samples.

Results

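The genes described here are 329 protein-coding genes of mouse chromosome 12, read in order along the chromosome in 4T1 cells kept with or without perfluorooctane sulfonate (PFOS), a persistent fluorinated surfactant. The deposited tables list 28418 genes, of which 1119 lie on chromosome 12 and 552 of these are protein-coding in GENCODE M21. Members were chosen by place, gene type and level, the last as a 6-library average of 2 FPKM or more (FPKM is the number of fragments scaled for transcript length and for library size). The 9 genes Odc1, Pdia6, Ltbp2, Fos, Jag2, Hif1a, Hsp90aa1, Rrm2 and Lpin1 were left out by name, and 7 of them were past that level. The chromosome itself was selected on the differences between the groups, since genes near its start were known to be lower, and genes further along higher, at 100 nM PFOS than at 0 nM. Differences between those groups therefore describe the members and do not test anything about them.

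Both groups were 4T1 cells, a mouse line grown from a mammary tumour, widely used to model triple-negative disease and labelled here as epithelial. In one group the cells were kept at 100 nM PFOS for 35 passages, and in the other at 0 nM for the same number of passages. Each group has 3 libraries of poly(A) RNA, whose second strand was marked with dUTP and removed before paired-end reading. The labels do not state whether replicate libraries were separate cultures, so the errors given rest only on spread between these libraries, which may be technical. Each SE comes from the limma fit, which moves the spread of a gene toward that of genes with similar levels. In bulk RNA, fewer cells with a transcript and less of it per cell cannot be told apart.

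The FPKM of a library summed to between 306716 and 309381, and 21042 to 21591 genes were above 0. The 7 epithelial markers summed to 793, 804 and 752 FPKM in the 100 nM libraries, against 715.5, 717 and 716 FPKM in the 0 nM libraries, and 5 of the 7 had every 100 nM library above every 0 nM library. The claudin gene Cldn7 was low throughout, at 0.74 to 2.02 FPKM. Replicate 3 at 100 nM stood apart. Its 11 leukocyte markers summed to 100.4 FPKM, against 17.8 and 17.9 FPKM in the other 100 nM libraries and 20.3, 30.1 and 26.1 FPKM in the 0 nM libraries. Of these 11 markers, 10 were at their highest in that library, among them the granzyme gene Gzmb at 14.9 FPKM. Gzmb was at 0 in the other 100 nM libraries and at 0.05 FPKM or less at 0 nM, and the T and natural killer cell genes Cd3e, Cd3g and Nkg7 were at 0 in the other 5 libraries. Values without that library are given beside several of the results.

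Mouse chromosomes carry the centromere at one end, so a position counted from the start of chromosome 12 is a distance from the centromeric end. Neighbouring genes of a mammalian chromosome usually have unrelated functions. As background, transcript levels of genes in one block of a chromosome tend to follow the copy number of that block, and genes of one chromatin domain can vary together. Neither copy number nor chromatin was measured here, and what lies behind the pattern was not tested.

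Along the chromosome, members at the centromeric end were slightly lower at 100 nM and most members beyond were slightly higher. Each member's difference was the mean log2(FPKM + 1) at 100 nM minus that at 0 nM, a scale that understates the change of genes with low levels. The cut between neighbouring members that best split the differences into a lower and a higher level fell at 24.97 Mb, between Klf11 and Kidins220. Of the squared deviation among members, 7.94% was removed by that cut, and the 10 best cuts lay between 21.27 and 26.44 Mb. The highest of these cuts lies just before Rsad2. Rsad2, Cmpk2 and Ifi27l2a, each highest in 100 nM replicate 3, had differences of 1.45, 1.55 and 1.04. Such values weigh heavily in the squared deviation. Without that library the best cut lay at 25.09 Mb. The cut at 24.97 Mb is called the turn below, with 43 members before it and 286 after it. The first member was Rab10, a small GTPase gene of membrane traffic at 3.25 Mb, and the last was Macc1 at 119.31 Mb. All coordinates are those of the deposited tables, which match GRCm38 gene models.

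Before the turn the median difference was -0.048 (interquartile range -0.096 to -0.019), with 35 of 43 members lower at 100 nM, and the median ratio of mean FPKM was 0.964. After the turn the median difference was 0.058 (interquartile range 0.0084 to 0.105), with 229 of 286 members higher and a median ratio of 1.05. Over all 329 members the median was 0.046, beside 0.0052 over all 11741 genes tested, of which 47.4% were lower. The shift was small for a typical member, and it was seen in each library. Measured against the mean of the 0 nM libraries, the median over members before the turn was -0.048, -0.039 and -0.075 in 100 nM replicates 1, 2 and 3. The 0 nM replicates, each set against the mean of the other 0 nM libraries, had -0.0088, 0.0038 and -0.0084. After the turn the medians were 0.071, 0.063 and 0.038 in the 100 nM libraries, against -0.013, 0.013 and -0.0010 in the 0 nM libraries. On neither side did the library medians of the groups overlap, which the choice of members favours. Without 100 nM replicate 3, 32 of 43 members were lower before the turn (median -0.042) and 235 of 286 were higher after it (median 0.067).

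**Figure D1:**
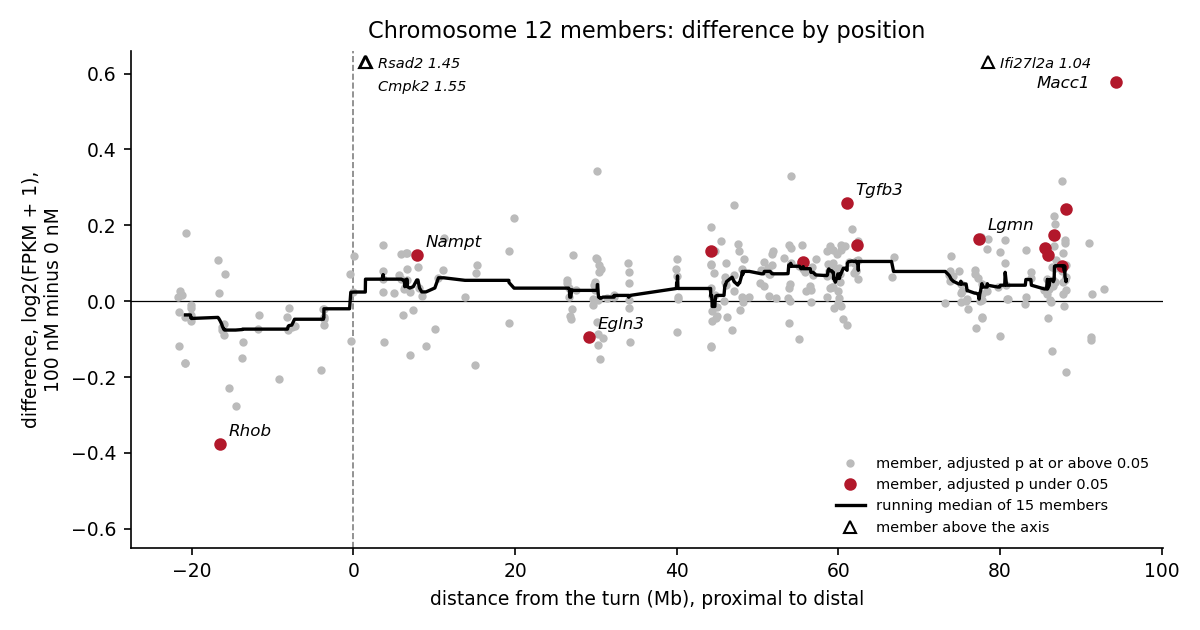
Difference of each of the 329 members (100 nM minus 0 nM, log2(FPKM + 1), vertical axis) against the distance of its start from the turn in Mb (horizontal axis). Grey points are members at or above the limma adjusted p of 0.05, red points the 14 members under it, the black line is a running median of 15 members, the dashed line is the turn, and 3 members above the axis are drawn as triangles with their values. The running median lies below 0 before the turn and above 0 over most of the stretch after it.

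In bins of 10 Mb the lowest median was that of the bin from 10 to 20 Mb, where all 11 members were lower at 100 nM and the median difference was -0.074. The first bin, from 0 to 10 Mb, had 17 of 24 members lower and a median of -0.043. The bin from 20 to 30 Mb, which holds the turn, was mixed, with 8 members lower, 10 higher and a median of 0.022. The upward side was uneven. From 30 to 40 Mb 18 of 23 members were higher (median 0.056), but from 50 to 60 Mb 24 of 36 (median 0.013) and from 60 to 70 Mb 14 of 22 (median 0.014). From 70 to 80 Mb 37 of 43 members were higher (median 0.070), and from 80 to 90 Mb 49 of 56 (median 0.083). From 100 to 110 Mb 28 of 36 members were higher, with a smaller median of 0.032. The bin from 110 to 120 Mb had 38 of 45 members higher and a median of 0.065. Only 6 members lay between 40 and 50 Mb and 9 between 90 and 100 Mb, so those medians (0.084 and 0.068) rest on few genes.

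**Figure D2:**
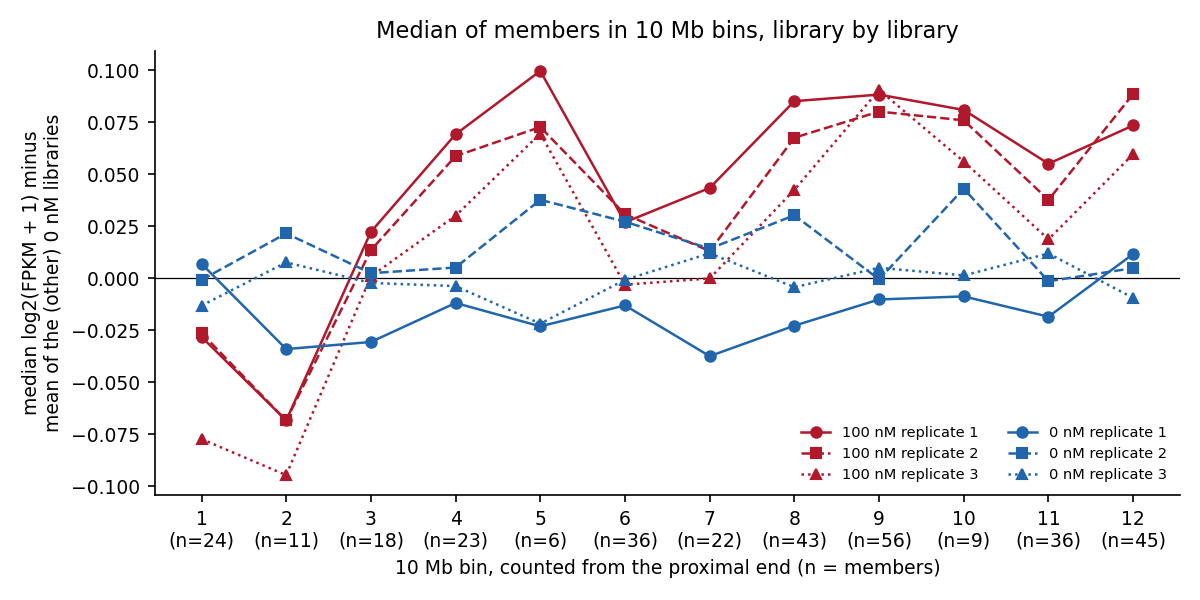
Median over the members of each of 12 bins of 10 Mb, counted from the centromeric end (horizontal axis, with the number of members), of log2(FPKM + 1) in each library minus the mean of the 0 nM libraries, or of the other 0 nM libraries for a 0 nM library (vertical axis). In 2 bins every 100 nM library median lies below every 0 nM library median, in 7 bins above, and in the bins numbered 3, 6 and 7 the groups overlap.

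Some long rows of neighbours had differences of one sign. From Osr1 to Ywhaq, 9.57 to 21.42 Mb, 18 members in a row were lower at 100 nM, with differences between -0.018 and -0.28. From Eif5 to Cdca4, 111.5 to 112.8 Mb, 18 in a row were higher, with differences of 0.020 to 0.32. From Trmt5 to Mpp5, 73.28 to 78.84 Mb, 17 in a row were higher, with differences of 0.0080 to 0.13. These rows were looked for after the values were seen. As 35 of 43 members before the turn were lower and 229 of 286 after it higher, long rows can arise in any order. They do not show that neighbours moved together.

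Few members moved far enough to stand out singly. The limma-trend fit over all 11741 genes put 14 of 329 members past an adjusted p of 0.05, 12 higher and 2 lower at 100 nM, beside 4.15% of all genes tested (1.69% higher and 2.46% lower). Centring each library on its median gene left 9, of which 6 were higher and 3 lower, beside 3.79% of all genes tested. Leaving out any 1 of the 6 libraries left between 2 and 5 members. The share called over all genes tested fell as well, to between 1.04% and 2.46%. Without 100 nM replicate 3 the count of members was 5, and without 0 nM replicate 2 it was 3. Without any other single library it was 2. In 119 members the 100 nM and 0 nM libraries did not overlap, 92 higher and 27 lower, beside 26.9% of all genes tested (13.7% higher and 13.3% lower).

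Rhob was the member with the largest downward difference. It encodes RhoB, a small GTPase that acts on actin and on traffic through endosomes, and lies on the reverse strand at chr12:8497661-8500009 (ENSMUSG00000054364), before the turn. Rhob had 42.1, 41.2 and 39.6 FPKM in the 100 nM libraries, against 52.6, 54.8 and 53.1 FPKM in the 0 nM libraries. The groups were far apart compared with the spread within each. Its means were 40.98 ± 1.235 FPKM at 100 nM and 53.5 ± 1.198 FPKM at 0 nM (SD, n = 3 each), a ratio of 0.766 and a difference of -0.38 ± 0.030 (SE) on the log2(FPKM + 1) scale. Rhob was the only member before the turn past the threshold, and it stayed past it in each of the 16 alternatives tried. The 300 bases around its start site (250 before and 50 after, RefSeq, GRCm38.p6, chr12:8499960-8500259, reverse strand) are shown because Rhob leads the lower side, with each CG pair in capitals. They hold 29 such pairs and 65.3% G and C, beside a median of 24 pairs over the 285 members with such a window. The median of 7 over 27025 promoters covers genes of any level, so it is not a like comparison for the members.
Rhob: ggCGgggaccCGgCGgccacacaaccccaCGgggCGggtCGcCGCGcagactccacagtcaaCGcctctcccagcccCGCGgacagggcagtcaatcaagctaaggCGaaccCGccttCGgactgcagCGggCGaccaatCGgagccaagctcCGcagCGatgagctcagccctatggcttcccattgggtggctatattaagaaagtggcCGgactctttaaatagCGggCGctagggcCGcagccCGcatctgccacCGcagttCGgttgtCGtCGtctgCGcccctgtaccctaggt

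Other members before the turn showed smaller differences, and the genes named in the next paragraphs without being past the threshold were mostly chosen after their values were seen. Rdh14, a retinol dehydrogenase gene, had 9.03, 10.75 and 10.9 FPKM in the 100 nM libraries, against 12.8, 11.97 and 12.9 FPKM in the 0 nM libraries. Its difference of -0.28 ± 0.071 (SE) was the second lowest on this side, and replicate 1 at 100 nM was the lowest of all 6 libraries. Osr1, a zinc finger transcription factor gene of kidney and limb development, had 3.46, 3.69 and 3.64 FPKM in the 100 nM libraries, against 4.63, 4.54 and 4 FPKM in the 0 nM libraries. The groups did not overlap, and the difference was -0.23 ± 0.056 (SE). Trib2, which encodes a pseudokinase that helps to target proteins for degradation, had 5.02, 5.08 and 5.43 FPKM at 100 nM and 6.01, 5.98 and 6.38 FPKM at 0 nM, again without overlap. Asap2, a GTPase-activating protein gene for Arf proteins, had 14.8, 15.3 and 14.2 FPKM at 100 nM and 16.5, 17.65 and 16.6 FPKM at 0 nM. Every 100 nM value of Asap2 lay below every 0 nM value, but 20.9% of its 31-base words are found in transcripts of other genes, so its level is less certain.

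Some genes of DNA repair and chromosome segregation were among the lower ones before the turn. Of the 18 members of the replication, repair and mitosis list, 15 lie after the turn, where 13 were higher at 100 nM (median difference 0.072). The other 3 lie before it, and in each of them the groups did not overlap. On this side, chosen for being lower, 15 of 43 members were apart and lower, beside 13.3% of all genes tested. Cenpo, a centromere protein gene, had 4.77, 5.04 and 4.89 FPKM in the 100 nM libraries, against 5.77, 5.57 and 5.46 FPKM in the 0 nM libraries. It overlaps Adcy3 on the other strand. Gen1, which encodes a resolvase of Holliday junctions, had 5.9, 5.4 and 5.52 FPKM at 100 nM and 5.93, 6.9 and 6.17 FPKM at 0 nM. Smc6, a subunit gene of the SMC5/6 repair complex, had 14.55, 14.4 and 14.7 FPKM at 100 nM and 15.4, 15.7 and 16.04 FPKM at 0 nM, and its difference was -0.11 ± 0.026 (SE). None of the 3 was past the threshold by limma. Counted over both sides and whatever the direction, 9 of the 18 members of the list had an unadjusted limma p under 0.05. This stands beside 28.9% of members and 20.7% of all genes tested, and says nothing about the 3 lower genes alone. Other members before the turn with groups apart included Ddx1, an RNA helicase gene, at 53.98, 53.98 and 53.4 FPKM at 100 nM and 55.7, 57.8 and 56.5 FPKM at 0 nM. Laptm4a, a lysosomal membrane protein gene, had 123.5, 122.0 and 125.6 FPKM at 100 nM and 125.9, 134.2 and 134.7 FPKM at 0 nM, the level highest among members before the turn. Sdc1, the cell surface proteoglycan gene syndecan-1, had 41.4, 42.8 and 40.8 FPKM at 100 nM and 44.4, 43.1 and 43.5 FPKM at 0 nM.

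A few members before the turn went the other way. Ncoa1, a coactivator gene of nuclear receptors, had 2.94, 3.05 and 2.87 FPKM in the 100 nM libraries, against 2.51, 2.48 and 2.47 FPKM in the 0 nM libraries. Its libraries did not overlap and its difference was 0.18 ± 0.043 (SE), the largest upward one there. Ldah, a lipid droplet hydrolase gene, had 7.38, 7.99 and 7.69 FPKM at 100 nM and 7.06, 7.2 and 6.89 FPKM at 0 nM, also without overlap and with a difference of 0.11 ± 0.037 (SE). Neither was past the threshold.

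At the turn itself the groups overlapped in each of the 4 nearest members. Taf1b, a subunit gene of the RNA polymerase I machinery, had 8.38, 8.29 and 9.39 FPKM in the 100 nM libraries, against 7.71, 8.23 and 8.71 FPKM in the 0 nM libraries, a difference of 0.071 ± 0.060 (SE). Klf11, a zinc finger transcription factor gene and the last member before the turn (chr12:24651274-24662789), had 2.72, 2.56 and 2.99 FPKM at 100 nM and 3.12, 2.94 and 3.04 FPKM at 0 nM, a difference of -0.10 ± 0.056 (SE). Kidins220, a scaffold gene of neurotrophin signalling and the first member after it (chr12:24974925-25063144), had 10.3, 9.96 and 10.8 FPKM at 100 nM and 10.04, 9.92 and 10.5 FPKM at 0 nM. Its difference was 0.024 ± 0.038 (SE), and -0.0024 without 100 nM replicate 3. Id2, the gene of an inhibitor of basic helix-loop-helix factors, had 8.1, 8.19 and 7.88 FPKM at 100 nM and 7.56, 6.41 and 8.16 FPKM at 0 nM, with 0 nM replicate 3 inside the 100 nM range and a difference of 0.12 ± 0.076 (SE). Klf11 and Kidins220 lie 312.1 kb apart, so the turn is no sharper than that gap, and the spread of the 10 best cuts is wider.

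After the turn Macc1 had the largest difference among members past the threshold. In human colon cancer MACC1 is known as a regulator of the MET receptor gene and a marker of metastasis. Mouse Macc1 lies on the forward strand at chr12:119314270-119469987 (ENSMUSG00000041886), as the last member of the chromosome. Macc1 had 5.86, 5.55 and 5.67 FPKM in the 100 nM libraries, against 3.34, 3.58 and 3.54 FPKM in the 0 nM libraries. The lowest 100 nM value was well above the highest 0 nM value. Its means were 5.69 ± 0.156 FPKM at 100 nM and 3.49 ± 0.129 FPKM at 0 nM (SD, n = 3 each), with a ratio of 1.63 and a difference of 0.58 ± 0.040 (SE), and it stayed past the threshold in each of the 15 alternatives that tested it.

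Other members past the threshold encode secreted, lysosomal or membrane proteins. Tgfb3, which encodes a transforming growth factor beta ligand (chr12:86056745-86079041, ENSMUSG00000021253), had 9.49, 8.89 and 9.03 FPKM in the 100 nM libraries, against 7.22, 7.63 and 7.57 FPKM in the 0 nM libraries. Its difference was 0.26 ± 0.037 (SE), with no overlap, but it overlaps Ttll5 on the other strand and whether strand was used in quantification is not given in the sources used here. Lgmn, the gene of the lysosomal protease legumain (chr12:102394084-102439813), had 53.5, 56 and 55.5 FPKM in the 100 nM libraries, against 47.9, 48.8 and 50.25 FPKM in the 0 nM libraries. Its ratio was 1.12 and its difference 0.16 ± 0.028 (SE). Tmem121, a transmembrane protein gene near the level limit of the members, had 2.83, 2.73 and 2.59 FPKM in the 100 nM libraries, against 2.19, 2.16 and 2.07 FPKM in the 0 nM libraries, a difference of 0.24 ± 0.049 (SE).

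Chaperone, motor and signalling genes past the threshold were also higher at 100 nM. Bag5, a co-chaperone gene of Hsp70, had 17.85, 17.2 and 17.8 FPKM in the 100 nM libraries, against 15.9, 15.4 and 15.2 FPKM in the 0 nM libraries (difference 0.18 ± 0.029, SE). Ahsa1, the gene of an activator of the Hsp90 ATPase, had 27.25, 27.35 and 26.7 FPKM in the 100 nM libraries, against 24.9, 23.6 and 24.6 FPKM in the 0 nM libraries (difference 0.15 ± 0.027, SE). Both genes had every 100 nM library above every 0 nM library. Dync1h1, the heavy chain gene of cytoplasmic dynein, had 35.9, 35.97 and 35.35 FPKM in the 100 nM libraries, against 32.65, 31.8 and 32.5 FPKM in the 0 nM libraries, a ratio of 1.11. Akt1, the kinase gene of PI3K signalling (chr12:112653821-112674884), was among the abundant members. Akt1 had 116.3, 117.2 and 115.4 FPKM in the 100 nM libraries, against 108.1, 108.1 and 110.7 FPKM in the 0 nM libraries, a ratio of 1.07 and a difference of 0.094 ± 0.019 (SE). The replicates of Akt1 lay within a few FPKM of each other, so that a small difference was larger than their spread.

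Nampt, the rate-limiting enzyme gene of NAD salvage and the most proximal higher member past the threshold (chr12:32819545-32853349), had 30.5, 31.4 and 31.15 FPKM in the 100 nM libraries, against 28.3, 28.9 and 28.1 FPKM in the 0 nM libraries. Cinp, which encodes a partner of cyclin-dependent kinase 2 in replication and checkpoint control, had 24.3, 24.25 and 24.2 FPKM in the 100 nM libraries, against 22.3, 22.6 and 21.8 FPKM in the 0 nM libraries. The 100 nM values of Cinp were almost identical to each other. Rpl36al, a ribosomal protein gene, had 125.6, 123.9 and 122.9 FPKM in the 100 nM libraries, against 111.2, 116.6 and 111.5 FPKM in the 0 nM libraries, but shared 23.4% of its 31-base words with other transcripts. Erh, a small nuclear protein gene of RNA processing, had 67.65, 67.3 and 67.7 FPKM in the 100 nM libraries, against 62.6, 63.6 and 62.04 FPKM in the 0 nM libraries. It shared 53.4% of its words and overlaps Slc39a9 on the other strand, so its level is less certain. The differences of these 4 genes were 0.12, 0.12, 0.13 and 0.10.

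**Figure D3:**
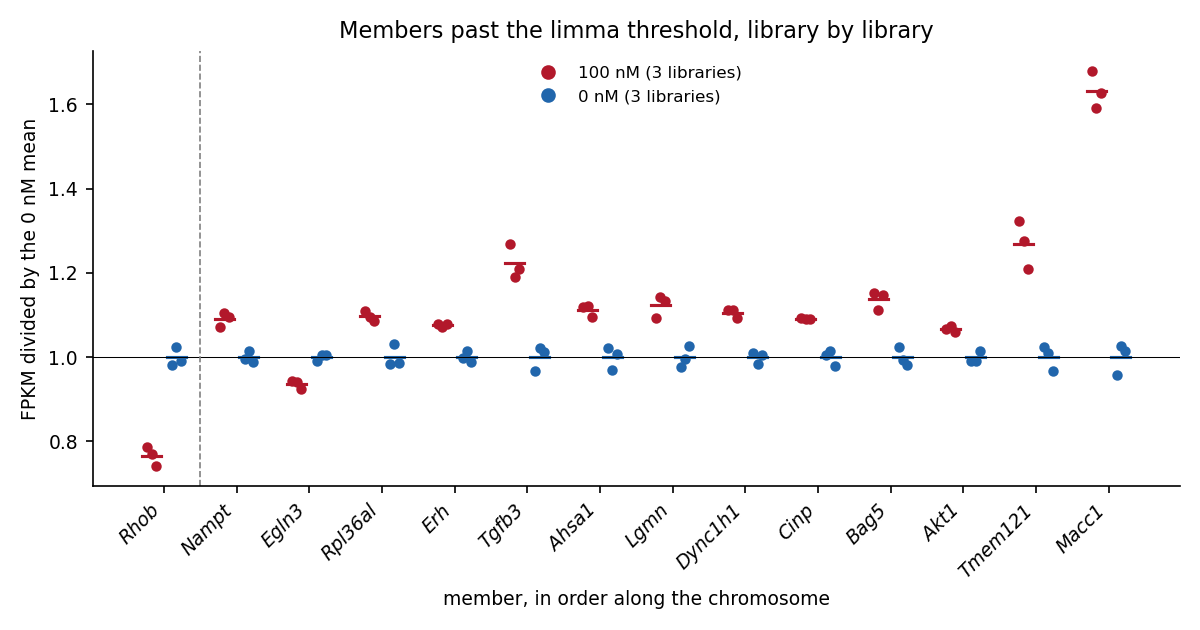
FPKM of each library divided by the member's 0 nM mean (vertical axis) for the 14 members past the limma threshold, in order along the chromosome (horizontal axis), with 100 nM libraries in red, 0 nM libraries in blue and bars at the group means. The dashed line marks the turn. Rhob, before the turn, is at a ratio of 0.766, and the 100 nM points lie above the 0 nM points in every member to its right but Egln3.

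Egln3 was the only member after the turn that was past the threshold and lower. It encodes a prolyl hydroxylase that marks hypoxia-inducible factors for degradation and is itself induced by them. Egln3 had 132.5, 132.1 and 129.9 FPKM in the 100 nM libraries, against 139.4, 141.1 and 141.1 FPKM in the 0 nM libraries (chr12:54178981-54203860). The ratio was 0.936 and the difference -0.095 ± 0.018 (SE), small but with groups that did not overlap. In 12 of 286 members after the turn every 100 nM library lay below every 0 nM library, beside 13.3% of all genes tested. Other such members were Hbp1, an HMG box repressor gene, at 8.35, 7.38 and 7.9 FPKM at 100 nM and 8.51, 8.66 and 9.21 FPKM at 0 nM. Pole2, a DNA polymerase epsilon subunit gene, had 17.9, 16.35 and 16.3 FPKM at 100 nM and 18, 18.9 and 18.1 FPKM at 0 nM. Hbp1 shared 25.4% and Pole2 11.03% of their 31-base words with other transcripts.

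Apart from those past the threshold, many members after the turn had 100 nM libraries above 0 nM libraries. Adssl1, the muscle-type adenylosuccinate synthase gene, had 7.02, 8.48 and 7.78 FPKM in the 100 nM libraries, against 5.33, 6.42 and 6.34 FPKM in the 0 nM libraries, a difference of 0.32 ± 0.084 (SE). Trmt61a, a tRNA methyltransferase gene, had 11.5, 10.5 and 10.9 FPKM at 100 nM and 9.02, 9.77 and 8.87 FPKM at 0 nM. Stxbp6, a SNARE-binding protein gene, had 2.53, 2.69 and 2.62 FPKM at 100 nM and 2.26, 2.02 and 2.04 FPKM at 0 nM. Each of these had no overlap between groups, though the spread of Adssl1 at 100 nM was wide. In the secretory pathway Tmed10, a cargo receptor gene of COPI vesicles, had 41.2, 40.9 and 39.2 FPKM at 100 nM and 35.5, 37.4 and 36.3 FPKM at 0 nM. Among regulators Max, the partner of MYC proteins, had 24.45, 25.5 and 25.6 FPKM at 100 nM and 22.2, 22.9 and 23.7 FPKM at 0 nM. Mta1, a subunit gene of the NuRD chromatin complex, had 64.7, 63.4 and 63.6 FPKM at 100 nM and 60.9, 60.6 and 57.8 FPKM at 0 nM. In all 3 of these the lowest 100 nM value lay above the highest 0 nM value. Npc2, the gene of a lysosomal cholesterol carrier, had 40.6, 42.9 and 45.7 FPKM at 100 nM and 40.2, 38.8 and 39.2 FPKM at 0 nM. Nek9, a mitotic kinase gene, had 19.2, 19.2 and 19.9 FPKM at 100 nM and 17.3, 17.5 and 18.01 FPKM at 0 nM. The groups were apart in both, with Npc2 highest in 100 nM replicate 3. In mitochondria Dlst, a subunit gene of the 2-oxoglutarate dehydrogenase complex, had 24.3, 23.7 and 23.3 FPKM at 100 nM and 22.6, 22.3 and 22.05 FPKM at 0 nM. Glrx5, a mitochondrial glutaredoxin gene of iron-sulfur cluster assembly, had 16.2, 16.8 and 16.5 FPKM at 100 nM and 15.5, 14.75 and 14.7 FPKM at 0 nM. Neither gene had overlapping groups.

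Among the 5 most abundant members Egln3, described above, was past the threshold, and those described next were not. Rps7, a ribosomal protein gene, had 460.9, 462.1 and 454.5 FPKM in the 100 nM libraries, against 438.1, 427.3 and 458.3 FPKM in the 0 nM libraries, with overlap between groups. Psma6, a proteasome subunit gene, had 172.9, 176.2 and 176.2 FPKM in the 100 nM libraries, against 165.8, 165.9 and 165.8 FPKM in the 0 nM libraries. The groups of Psma6 were apart but it was not past the threshold (difference 0.078 ± 0.017, SE). Rps29, another ribosomal protein gene, had 137.4, 137.0 and 158.5 FPKM at 100 nM and 147.4, 133.6 and 141.2 FPKM at 0 nM, with replicate 3 the highest at 100 nM and overlap between groups. Its difference was 0.033 ± 0.064 (SE), -0.035 without 100 nM replicate 3 and -0.0033 without 0 nM replicate 2. Rps7 shared 30.6% and Rps29 21.3% of their 31-base words with other transcripts.

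The members differ widely in function, and most role lists have members on both sides of the turn. Members were sorted into 11 role lists, of which 10 are described here, and 117 of the 329 are in no list. Counts past the threshold below stand beside 4.15% of all genes tested (1.69% higher and 2.46% lower). Such small counts are not read as results about a role. In the transcription and chromatin list the median difference was -0.026 over 8 members before the turn and 0.037 over 25 after it, with 1 of 33 (Macc1) past the threshold and higher. In the RNA processing and decay list it was -0.055 over 4 members and 0.011 over 15, with 1 of 19 (Erh) past the threshold. In the metabolism and mitochondria list it was -0.16 over 2 members and 0.083 over 28, with 1 of 30 (Nampt). The medians of these lists were below 0 before the turn and above 0 after it. The turn was placed by these same differences, so such signs are favoured in any list and say nothing about a role. In the replication, repair and mitosis list the median was -0.15 over 3 members before the turn and 0.072 over 15 after it, with 1 of 18 (Cinp). The kinase, phosphatase and growth signalling list had -0.048 over 3 members and 0.032 over 20, with 1 of 23 (Akt1).

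The next lists had medians of the same signs, and their counts past the threshold again stand beside 4.15% of all genes tested. Cell surface, matrix and shedding genes had a median of -0.063 over 3 members before the turn and 0.065 over 6 after it, with 2 of 9 (Tgfb3 and Lgmn) past the threshold and higher. Membrane traffic genes had -0.039 over 4 members and 0.069 over 20. None of the 24 was past the threshold by limma, and 5 had an unadjusted p under 0.05 (20.8%, beside 20.7% of all genes tested). In the ubiquitin and proteasome list, 1 member lay before the turn (Ubxn2a, difference -0.052) and the 16 after it had a median of 0.048. None of these 17 was past the threshold by limma, and 4 had an unadjusted p under 0.05 (23.5%). The ribosome and translation list had 1 member before the turn, the nucleolar protein gene Nol10 (difference -0.067), and a median of 0.057 over 15 after it, with 1 of 16 (Rpl36al) past the threshold. The 117 members in no list had a median of 0.069 over both sides, with 3 past the threshold and higher (Ahsa1, Bag5 and Tmem121) and 1 lower (Egln3).

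**Figure D4:**
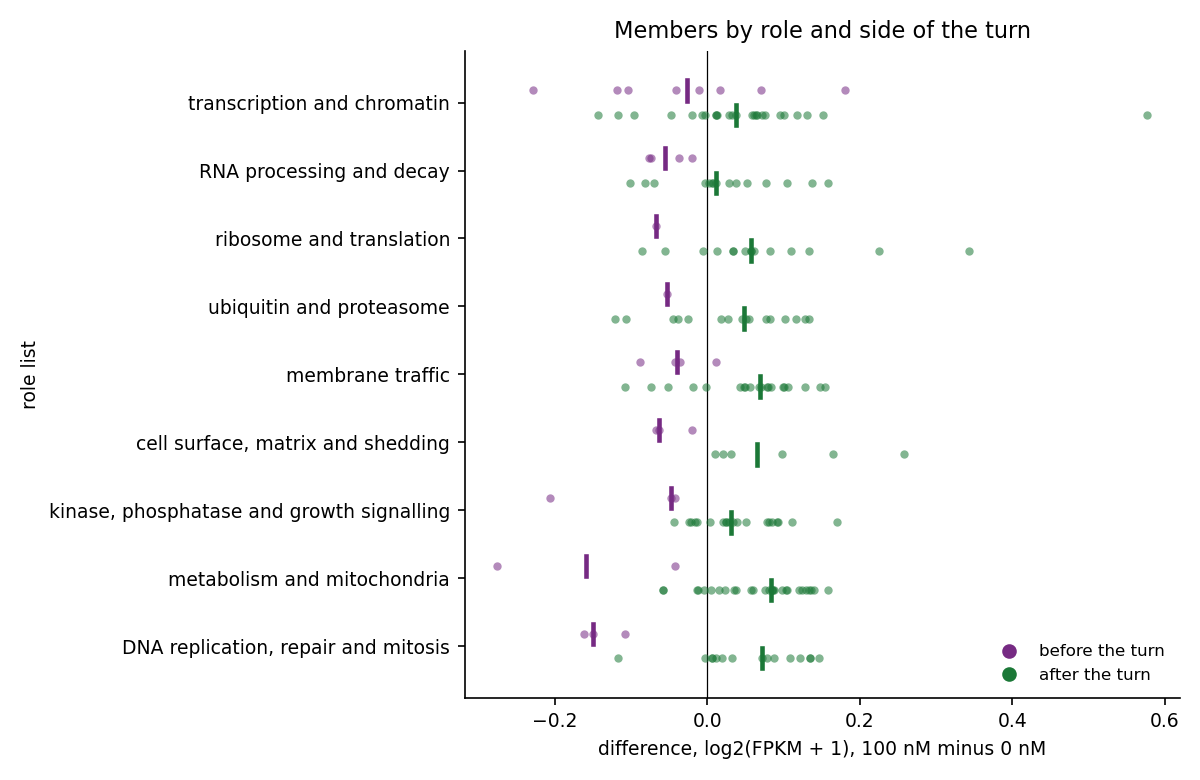
Difference of each member (100 nM minus 0 nM, log2(FPKM + 1), horizontal axis) in 9 role lists (vertical axis), with members before the turn in purple, those after it in green and bars at the medians. In each of the 9 lists the purple bar lies left of 0 and the green bar right of it, which the placing of the turn by these same values favours. Lists differ in size, and 2 of them have 1 member before the turn.

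Some members of the interferon and NF-kB list varied widely between libraries of one group. All 7 of its members lie after the turn. Rsad2 encodes viperin, an antiviral radical SAM enzyme induced by interferon, and its neighbour Cmpk2 encodes a mitochondrial nucleotide kinase also induced by interferon. Rsad2 (chr12:26442746-26456452, reverse strand) had 2.48, 0.75 and 19.1 FPKM in the 100 nM libraries, against 0.51, 1.85 and 0.4 FPKM in the 0 nM libraries. Cmpk2 (chr12:26469204-26479837, forward strand) had 1.93, 0.44 and 12.5 FPKM in the 100 nM libraries, against 0.23, 0.58 and 0.17 FPKM in the 0 nM libraries. Replicate 3 at 100 nM was the highest library for both, replicate 1 at 100 nM came next, and replicate 2 at 100 nM lay within the 0 nM range. Ifi27l2a, another interferon-induced gene (chr12:103442167-103443680), had 2.77, 1.9 and 18.6 FPKM in the 100 nM libraries, against 0.48, 1.77 and 5.05 FPKM in the 0 nM libraries, with the same library highest and 0 nM replicate 3 next. The differences were 1.45 ± 0.86 (SE) for Rsad2, 1.55 ± 0.75 (SE) for Cmpk2 and 1.04 ± 0.82 (SE) for Ifi27l2a, and none of the 7 members was past the threshold by limma, with 2 at an unadjusted p under 0.05. Without 100 nM replicate 3 the differences were 0.44 ± 0.41 for Rsad2, 0.64 ± 0.32 for Cmpk2 and 0.18 ± 0.56 for Ifi27l2a (SE). The leukocyte markers were highest in the same library, summing to 100.4 FPKM there and to 17.8 to 30.1 FPKM in the others. Cd14 alone gave 65.2 FPKM of that highest sum. The part of the leukocyte markers in the values of these genes was not tested.

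The 300 bases around the start sites of this neighbouring pair are shown because both genes were highest in the same library (RefSeq, GRCm38.p6, Rsad2 at chr12:26456403-26456702 on the reverse strand and Cmpk2 at chr12:26468965-26469264 on the forward strand). The motif searched was the core of the interferon-stimulated response element, GAAA, then NN (any 2 bases), then GAAA, on both strands, with matches in capitals.
Rsad2: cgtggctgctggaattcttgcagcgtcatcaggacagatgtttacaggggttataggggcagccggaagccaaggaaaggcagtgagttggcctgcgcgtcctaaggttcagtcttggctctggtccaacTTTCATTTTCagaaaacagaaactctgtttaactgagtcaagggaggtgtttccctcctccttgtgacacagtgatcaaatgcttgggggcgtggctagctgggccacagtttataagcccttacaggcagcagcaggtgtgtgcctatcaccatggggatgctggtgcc
Cmpk2: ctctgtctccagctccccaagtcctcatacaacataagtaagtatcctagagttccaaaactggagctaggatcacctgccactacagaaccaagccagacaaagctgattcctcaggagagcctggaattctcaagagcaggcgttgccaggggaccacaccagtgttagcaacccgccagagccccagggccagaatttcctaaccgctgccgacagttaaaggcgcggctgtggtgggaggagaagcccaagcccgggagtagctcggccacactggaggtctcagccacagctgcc
Rsad2 has 1 match, on the reverse strand of the printed sequence, and Cmpk2 has none in this window. The motif was found in 8 of the 285 members with such a window (2.81%) and in 943 of 27025 promoters (3.49%). A match is a string of letters and not a measured binding site.

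The other members of the list ranged less widely. Ifi27, an interferon-induced membrane protein gene, had 22.8, 23.9 and 25.5 FPKM in the 100 nM libraries, against 21.4, 22.6 and 20.1 FPKM in the 0 nM libraries, with groups that did not overlap and a difference of 0.16 ± 0.055 (SE). Nfkbia, which encodes the NF-kB inhibitor IkB alpha, had 56.95, 56.3 and 66.5 FPKM at 100 nM and 64.2, 68.5 and 66.8 FPKM at 0 nM, with 100 nM replicate 3 inside the 0 nM range. Its difference was -0.15 ± 0.066 (SE), and -0.23 ± 0.032 (SE) and past the threshold without that library. Traf3, an adaptor gene of innate immune signalling, had 16.1, 16.7 and 16.35 FPKM at 100 nM and 16.65, 16.2 and 16.3 FPKM at 0 nM. Tnfaip2, a gene induced by tumour necrosis factor, had 37.3, 37.2 and 35.2 FPKM at 100 nM and 40.3, 39.4 and 40.6 FPKM at 0 nM. Every 100 nM value of Tnfaip2 lay below every 0 nM value, and its difference was -0.13 ± 0.029 (SE), in a bin where 38 of 45 members were higher.

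**Figure D5:**
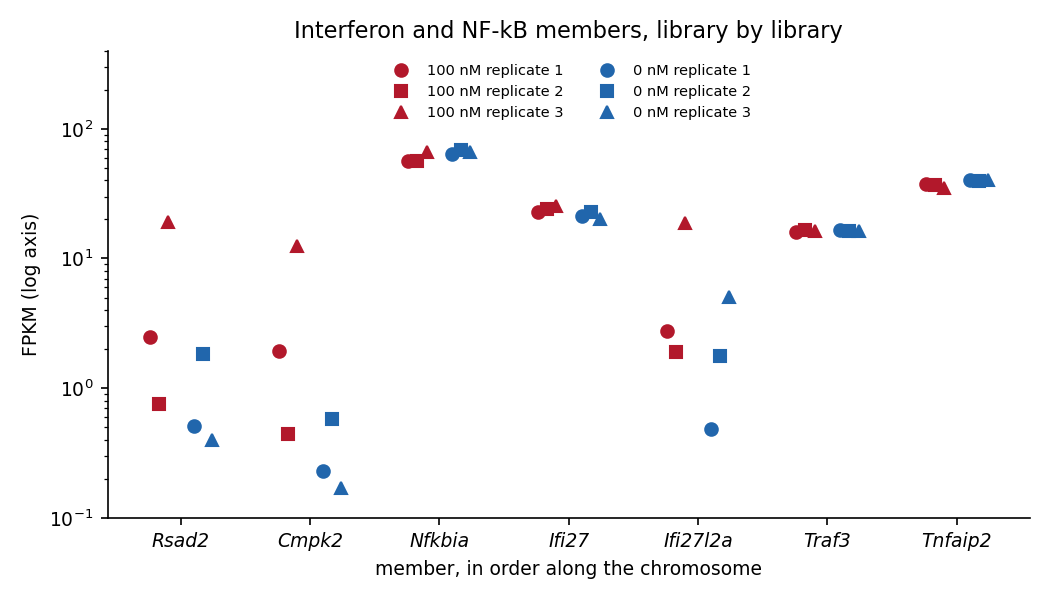
FPKM on a log axis (vertical) of the 7 members of the interferon and NF-kB list, in order along the chromosome (horizontal), with 100 nM libraries in red, 0 nM libraries in blue and a symbol for each replicate. Rsad2, Cmpk2 and Ifi27l2a reach 19.1, 12.5 and 18.6 FPKM in 100 nM replicate 3, while the other 4 members lie between 16.1 and 68.5 FPKM in every library.

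After the turn the shift was not confined to one range of levels, but before it the middle class had little of it. Split by mean FPKM into 3 classes of equal size over all members, the median difference before the turn was -0.043 in the low class (17 members), -0.019 in the middle (10) and -0.067 in the high (16). In that middle class 6 of 10 members were lower, and the median of 100 nM replicate 1 was 0.015, above that of every 0 nM library. After the turn it was 0.069 in the low class (93 members), 0.068 in the middle (99) and 0.045 in the high (94). Of the 13 members past the threshold after the turn, 10 were in the high class. At the level limit, Pnpla8 (mean 2.01 FPKM, difference -0.058) and Klhl28 (2.04 FPKM, 0.084) were just inside. Gm20498 (1.93 FPKM, -0.047) and Clba1 (1.85 FPKM, -0.0058) were just outside.

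Gene length and shared sequence were not used in the choice, and level only through its lower limit. Members before the turn had a median gene length of 32.2 kb and those after it 33.5 kb, beside 22.7 kb for all 9214 protein-coding genes of at least 2 FPKM. The median of the mean FPKM was 8.45 before the turn and 8.48 after it, beside 9.50 for those genes. At least 10% of 31-base words were shared with other genes in 25.6% of members before the turn and 20.3% of members after it, beside 22.6%. Without such members, the medians were -0.062 over 32 before the turn and 0.065 over 228 after it. A promoter window was matched by symbol for 285 members (86.6%), with a median of 27 CG pairs before the turn and 24 after it. Over all protein-coding genes of that level the median was 22, but only 79.7% of them had a window, so no comparison is drawn.

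Chromosome 12 was not alone in having most genes on one side of 0. Among protein-coding genes of at least 2 FPKM, the median difference was 0.049 over 528 genes of chromosome 9, with 75.2% higher at 100 nM, beside 0.058 over members after the turn. It was -0.11 over 283 genes of chromosome 16, with 78.4% lower, and -0.093 over 212 genes of chromosome 18, with 85.8% lower. Members before the turn had a median of -0.048, nearer to 0 than either, but they are part of a chromosome that was cut where the sign changes. Over all 336 such genes of chromosome 12, with the left-out genes put back, the median was 0.045, with 71.7% higher. Over 254 genes of chromosome X it was 0.040, with 68.5% higher. Over all 9214 such genes the median was 0.0034, with 48.2% lower. No test of the difference between chromosomes was made.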

How the data were processed

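Poly(A) RNA of 4T1 cells was sequenced in 6 libraries, of which 3 were from cells with 100 nM PFOS and 3 from cells without. The deposited values are FPKM per gene; per the submitters' processing notes the authors used fastp, HISAT2 and StringTie, with GRCh38 and mm10 both named. Versions of these tools, not given in the sources used here, are unknown. No read counts were used, so depth is unknown. The coordinates belong to GRCm38, since 28350 of 28418 identifiers are in GENCODE M21 and 25640 have the same start and end there.

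Each gene was tested with limma-trend (limma 3.58.1, R 4.3.3). The test was two-sided, on log2(FPKM + 1), for 100 nM minus 0 nM. P-values were adjusted by the Benjamini-Hochberg method over the 11741 genes whose 6-library average reached 1 FPKM. All 329 members passed that filter, and a member was past the threshold at an adjusted p under 0.05. The turn was the least-squares cut between 2 mean levels, with at least 20 members on each side. Shared sequence was counted in 31-base words of transcripts. The scripts were tested on simulated data. Alternatives covered pseudocounts, filters, scaling, the trend, the replicate number as a block, the choice of members and leaving out libraries.

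The members, role lists and tests were chosen with earlier results of these data known, and the contrast helped to choose them. Named by rule were the 8 lowest and 8 highest members past the threshold with groups apart, up to 3 past it per list, the 5 with the highest FPKM, the interferon and NF-kB list, members against their side, and those next to the turn and the level limit (33 members). Of these, 1 member is not reported here, and neither is 1 role list. Tables and figures were made in Python 3.11.15 with pandas 2.3.3, numpy 2.4.6 and matplotlib 3.10.9.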

Additional observations from a re-analysis of the deposited data

How the results depend on the processing

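The median difference kept its sign over all members and on both sides of the turn under every alternative tried. The sides stayed those of the turn at 24.97 Mb, which was placed by these same differences, so their signs were largely set in advance. The choice of genes tested, the trend and the block cannot change a median over the same members. Leaving out each library in turn gave 0.040 to 0.059 over all members, -0.066 to -0.042 before the turn and 0.053 to 0.067 after it. The count of members past the threshold, 14, depended on the settings. The share of all genes tested that was called, 4.15%, moved with it. The count was 7 with genes of at least 0.1 FPKM tested (1.85% of all genes), 23 of 237 with genes of at least 5 FPKM tested (7.98%), 9 with libraries centred on the median gene (3.79%), 5 without the trend in limma (2.5%), 25 with protein-coding genes only (6.38%), and 2 without replicate 3 of both groups (0.63%). Leaving out each library in turn gave 2 to 5 (1.04% to 2.46% of all genes). The cause was not tested, except that other filters change the number of genes adjusted over and that fewer libraries leave fewer degrees of freedom. The turn, at 24.97 Mb, moved to 24.5 Mb with genes or members of at least 5 FPKM, to 24.71 Mb with the left-out genes put back, and to between 24.5 and 25.09 Mb without single libraries. Of the 14 named members past the threshold, 2 (Rhob and Macc1) kept the call under every alternative that tested them. The direction of 3 named members that were not past the threshold reversed. Rps29 was at -0.032 without replicate 3 of both groups and at -0.035 to 0.069 without single libraries. Traf3 was at -0.0015 with quantile normalization, at -0.0023 with libraries centred on the median gene and at -0.010 to 0.014 without single libraries. Kidins220 was at -0.0024 to 0.049 without single libraries. Named members that passed the threshold only under an alternative were Psma6 and Tnfaip2 (genes of at least 5 FPKM, protein-coding genes only), Ncoa1 (no trend) and Nfkbia (without 100 nM replicate 3). Added after seeing the data, the count of lower members before the turn was 32 without 100 nM replicate 3 and 33 without replicate 3 of both groups (35 with all libraries), and that of higher members after it was 235 under both (229 with all).

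With the replicate number as a block, 2 members were past the threshold (0.494% of all genes). The numbers did not pair the samples: deviations of same-numbered libraries correlated at -0.033, -0.053 and 0.0065, and no 100 nM library correlated best with its own number. With 3 libraries a group and no counts, only the spread between libraries shows how precise a single value is.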

Other observations

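The pseudogenes of chromosome 12 with a mean of at least 1 FPKM did not follow the protein-coding members. Over 21 pseudogenes before the turn the median difference was 0.048, with 13 higher at 100 nM, and over 30 after it -0.028, with 18 lower. A median of 80.2% of their 31-base words are found in transcripts of other genes, and the part of such sharing in their levels was not tested. The 16 long non-coding genes had a median of -0.0081, with 8 lower. The 25 protein-coding genes after the turn that were tested but lay below the members' level had a median of 0.043, with 17 higher.

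Mycn, the gene of a MYC family transcription factor, lay below the members' level, with a mean of 1.58 FPKM. It had 0.35, 0.07 and 5.57 FPKM in the 100 nM libraries, against 0.58, 1.3 and 1.59 FPKM in the 0 nM libraries. Replicate 3 at 100 nM was the highest and the others at 100 nM were below every 0 nM library. Ckb, the brain-type creatine kinase gene, had 0.65, 1.07 and 3.35 FPKM in the 100 nM libraries, against 1, 0.94 and 1.2 FPKM in the 0 nM libraries, again with that library highest. Foxa1, a pioneer transcription factor gene of luminal mammary epithelium, had 1.03, 1.04 and 0.81 FPKM in the 100 nM libraries, against 1.41, 1.32 and 1.51 FPKM in the 0 nM libraries, without overlap and with a difference of -0.30 ± 0.078 (SE), and it was not past the threshold.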
